A study of Mus musculus with 9 samples.

Results

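The developmental transcription factor families described here are 85 of 21887 protein-coding mouse genes in the RefSeq gene table of build GRCm38.p6. They were chosen by symbol: every numbered protein-coding gene of the Lhx, Nkx, Dlx, Pou3f, Pou4f, Tbx, Irx, Pax and Fox (classes a to g) families and of the Six-type (sine oculis) homeobox family. A gene counted as bound in a list of peaks when at least 1 bp of a peak lay within 1000 bp of either end of the gene. The study mapped 2 histone deacetylases, Hdac1 and Hdac2, by ChIP-seq in haemogenic endothelium made from mouse embryonic stem cells. Its title places the work in TGF-b signalling and the passage from endothelial to blood cells.

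The cells came from 3 C57BL/6 embryonic stem cell lines that the labels call Bry (passage 16 to 19), Hd1_loxlox (passage 25 to 30) and Hd2lox (passage 25 to 30). The labels state that no treatment was given, and they do not say what alleles the line names stand for or whether a deletion was induced. Each line gave 1 Hdac1 library (Diagenode antibody) and 1 Hdac2 library (abcam antibody), so there are 6 peak lists, and the 3 lines are the only replicates. Nothing in the labels says that the lines were differentiated or processed separately. Line and library cannot be told apart in any difference between lines. In a difference from Bry, passage cannot be told apart from them either, whereas Hd1_loxlox and Hd2lox have the same passage range. The 3 input libraries were not analysed here. Peak lists do not measure expression, so the labelled cell type could not be checked against markers, and a peak can come from only some of the cells.

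The 6 lists held 46202 peaks in all. The Hdac1 lists were of similar length, with 7671 peaks in Bry, 7490 in Hd1_loxlox and 7519 in Hd2lox. The Hdac2 lists held 9279, 5161 and 9082 peaks in the same order. The Hd1_loxlox Hdac2 list stood apart, with peaks at the ends of 594 genes against 2946 to 7532 in the other 5 lists, so the main counts that use it are also given without it. The Hd2lox Hdac2 list differed too, with peaks at the ends of 2946 genes where Bry Hdac2 had 7532. Its peaks were the narrowest, with a median width of 822 bp against 1099 to 1475 bp in the other lists. The files give peak positions and no scores or read numbers, so read depth is unknown and a gene without a peak is one at which none was called.

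Homeobox proteins of the Lhx, Nkx, Dlx, Pou, Irx, Pax and Six-type families, T-box proteins and forkhead proteins bind DNA and set the identity of cells and regions in the embryo. Most are used again and again in brain, heart, limb, kidney and gut, and most are kept silent in cells of other fates. Hdac1 and Hdac2 remove acetyl groups from histones as parts of repressor complexes such as Sin3, NuRD and CoREST, and are also found at active promoters. In haemogenic endothelium, the endothelium that gives rise to blood cells, a minority of these families, such as the Foxc and Foxf genes of vessel development, have known roles.

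Of the 85 members, 60 had a promoter in the RefSeq promoter table, with 73 listed starts in all. Each entry runs from 250 bases before to 50 bases after a start, 300 bases in length. Promoters of 6 members are shown, 5′ to 3′ on the strand of the gene and with each CpG dinucleotide in capitals, to set a gene bound in both Hd2lox lists alone (Nkx2-4 and Foxd3) beside one bound in 5 lists (Foxf2), one whose peaks lay at an inner start (Irx2) and those bound in none (Dlx2 and Tbx22). The Nkx2-4 promoter is at chr2:147085296-147085595 on the minus strand, Foxd3 at chr4:99656049-99656348 on the plus strand and Foxf2 at chr13:31625566-31625865 on the plus strand. Irx2 is at chr13:72628570-72628869 on the plus strand, Dlx2 at chr2:71546705-71547004 on the minus strand and Tbx22 at chrX:107667714-107668013 on the plus strand, all in GRCm38.p6. They hold 38, 25, 27, 25, 29 and 1 CpG, in the order printed.
Nkx2-4: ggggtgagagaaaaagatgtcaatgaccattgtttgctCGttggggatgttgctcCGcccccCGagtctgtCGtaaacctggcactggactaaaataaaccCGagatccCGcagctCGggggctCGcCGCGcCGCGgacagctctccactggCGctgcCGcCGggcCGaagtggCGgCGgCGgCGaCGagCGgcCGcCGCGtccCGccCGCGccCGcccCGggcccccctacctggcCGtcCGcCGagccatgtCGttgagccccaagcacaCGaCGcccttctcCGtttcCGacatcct
Foxd3: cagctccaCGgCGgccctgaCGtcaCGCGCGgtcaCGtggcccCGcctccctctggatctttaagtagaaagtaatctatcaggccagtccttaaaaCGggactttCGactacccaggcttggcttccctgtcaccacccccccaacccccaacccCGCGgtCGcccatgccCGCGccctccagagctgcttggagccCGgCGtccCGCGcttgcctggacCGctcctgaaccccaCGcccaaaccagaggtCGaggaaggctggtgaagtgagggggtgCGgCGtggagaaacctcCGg
Foxf2: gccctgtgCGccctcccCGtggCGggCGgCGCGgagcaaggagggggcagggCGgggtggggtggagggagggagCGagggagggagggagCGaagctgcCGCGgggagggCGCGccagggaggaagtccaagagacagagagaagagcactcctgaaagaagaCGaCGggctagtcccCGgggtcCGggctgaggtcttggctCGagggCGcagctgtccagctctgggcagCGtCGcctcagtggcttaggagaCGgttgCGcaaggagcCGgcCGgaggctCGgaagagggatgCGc
Irx2: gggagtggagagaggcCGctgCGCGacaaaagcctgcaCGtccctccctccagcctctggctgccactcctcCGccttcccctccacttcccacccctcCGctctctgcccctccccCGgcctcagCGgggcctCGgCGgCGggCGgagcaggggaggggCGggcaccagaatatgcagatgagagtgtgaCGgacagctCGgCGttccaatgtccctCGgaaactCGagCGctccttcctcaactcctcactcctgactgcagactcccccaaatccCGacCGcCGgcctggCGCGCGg
Dlx2: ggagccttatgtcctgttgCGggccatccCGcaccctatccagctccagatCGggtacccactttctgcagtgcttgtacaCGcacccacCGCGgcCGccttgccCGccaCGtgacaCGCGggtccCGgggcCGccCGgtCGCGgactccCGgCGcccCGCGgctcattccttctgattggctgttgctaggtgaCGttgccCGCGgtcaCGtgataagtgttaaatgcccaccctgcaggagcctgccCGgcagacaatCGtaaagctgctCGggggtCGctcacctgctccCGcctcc
Tbx22: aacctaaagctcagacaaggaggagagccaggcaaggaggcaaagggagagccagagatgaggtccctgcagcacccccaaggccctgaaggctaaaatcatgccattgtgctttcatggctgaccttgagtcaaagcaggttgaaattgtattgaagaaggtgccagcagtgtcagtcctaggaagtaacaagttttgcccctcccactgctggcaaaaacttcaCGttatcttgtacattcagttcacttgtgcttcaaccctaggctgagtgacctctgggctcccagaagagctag

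CpG-rich DNA was not particular to the bound genes among these 6, since Dlx2, which patterns forebrain interneurons and jaw, had 29 CpG and no peak. Over the 60 members with an entry, the median observed to expected CpG ratio was 0.67, against 0.58 over the 17492 protein-coding genes with one. The ratio was over 0.6 at 65.0% of the members and 48.4% of all genes. Members bound in both Hd2lox lists and in none of the other 4 had a median of 0.79 (11 genes; 0.77 over the 289 such genes with an entry). Members bound in a Bry or Hd1_loxlox list had 0.75 (27 genes; 0.81 over 7746). Members bound in no list had 0.58 (19 genes), whereas the 9111 protein-coding genes bound in no list had 0.26. Bound here means a peak at a gene end, and at 5 of the 19 members (Foxa1, Irx2, Lhx4, Pax1 and Pax9) the start itself lay in a peak inside the gene. Over the 9 members with no peak anywhere in the gene the median was 0.31, against 0.23 over 7555 such genes. These differences were described and not tested.

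**Figure D1:**
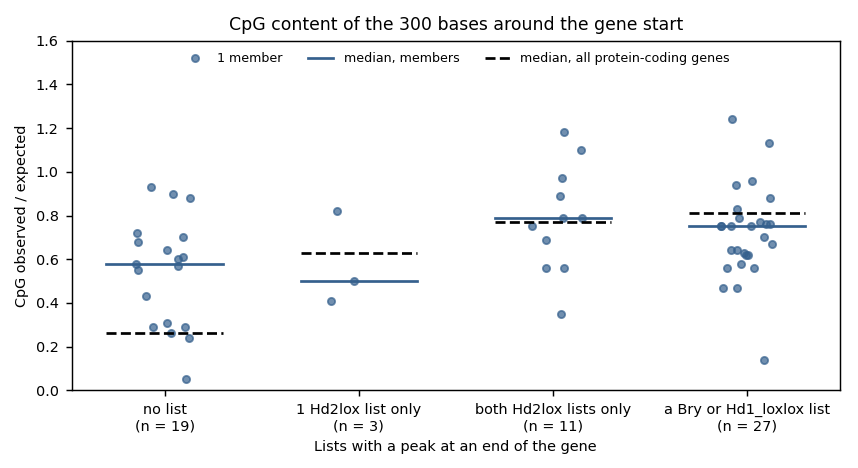
Observed to expected CpG ratio of the RefSeq promoters of member genes, grouped by the lists that bind them; each point is 1 gene, solid lines are the members' medians and dashed lines those of all protein-coding genes in the same group. The 19 members bound in no list had a median of 0.58, and those bound in both Hd2lox lists alone 0.79.

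Short motifs were searched on both strands of the same 300 bases. The Sp1 and Klf box GGGCGG was found at 66.7% of members (46.3% of all genes with an entry), CCAAT at 48.3% (39.2%) and TATAAA at 6.67% (13.3%). The Ets core CCGGAA was found at 10% of members (19.1%), the E-box CACGTG at 8.33% (7.91%) and the Gata sequence AGATAA at 11.7% (9.94%). None of the motifs contains another. These are matches of letters in a window and were not read as sites.

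Members were bound near the background rate or below it in the Bry and Hd1_loxlox lists and above it in both Hd2lox lists. In the Bry Hdac1 list 20 of 85 members were bound, or 23.5% (exact binomial 95% interval 15 to 34), where 31.9% of all protein-coding genes were bound. In the Hd1_loxlox Hdac1 list the count was 24, or 28.2% (19.0 to 39.0), beside 31.7% of all genes. In the Hd2lox Hdac1 list it was 39, or 45.9% (35.0 to 57.0), beside 24.3%. The intervals cover counting error only, and treat genes as independent.

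Hdac2 gave 30 members in Bry, or 35.3% (25.2 to 46.4), beside 34.4% of all genes. In Hd1_loxlox there were 2, or 2.35% (0.286 to 8.24), beside 2.71%. In Hd2lox there were 36, or 42.4% (31.7 to 53.6), beside 13.5%. The ratio of the members' share to that of all genes was 3.15 in the Hd2lox Hdac2 list and 1.89 in the Hd2lox Hdac1 list, and lay between 0.737 and 1.03 in the other 4 lists. Between the Bry and Hd2lox Hdac2 lists the members' share differed less (35.3% and 42.4%) than that of all genes (34.4% and 13.5%). For Hd1_loxlox Hdac2, with few genes, the ratio was 1.49 with a 2000 bp window (5.88% against 3.94%) and 1.33 with a 5000 bp window. The 2 Hd2lox lists were thus the only ones whose interval lay wholly above the share of all genes.

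**Figure D2:**
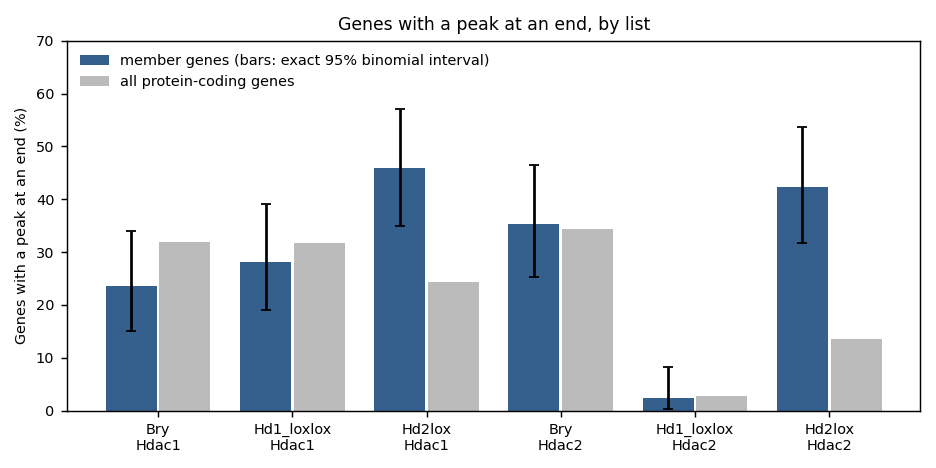
Share of the 85 members with a peak within 1000 bp of a gene end in each of the 6 lists, with exact binomial 95% intervals, beside the share of all 21887 protein-coding genes. Members stand above all genes in both Hd2lox lists, at 45.9% and 42.4%.

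Averaged over the 3 lines, Hdac1 bound 32.5% ± 11.8 (SD, n = 3) of members and Hdac2 26.7% ± 21.4 (SD, n = 3). Within lines, Hdac1 minus Hdac2 came to -11.8 percentage points for Bry, 25.9 for Hd1_loxlox and 3.53 for Hd2lox, with a mean of 5.88 ± 18.9 (SD, n = 3), so its spread was larger than its size. Without the Hd1_loxlox line the mean difference was -4.12, and with only that line's Hdac2 list left out -6.27. All protein-coding genes gave 29.3% ± 4.35 (SD, n = 3) for Hdac1 and 16.9% ± 16.1 (SD, n = 3) for Hdac2. No test is given, because 3 libraries against 3 cannot reach the usual threshold in an exact permutation test.

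Over the 6 lists the members gave 151 of 510 possible calls, or 29.6%, and all genes 23.1%. Without the Hd1_loxlox Hdac2 list these were 149 of 425 calls, or 35.1%, and 27.2%. A peak lay at an end of 57 members in at least 1 list, and 28 members (32.9%) had none, against 52.2% of all genes. Without that list the members' count was again 28, against 53.1%. Of these 28 members, 12 had a peak inside the gene away from its ends and 16 had no peak anywhere. Of the 57, 45 (78.9%) were bound by both antibodies, 5 (8.77%) by Hdac1 alone and 7 (12.3%) by Hdac2 alone, with the same counts without the Hd1_loxlox Hdac2 list. Over the 10454 protein-coding genes bound in any list the shares were 72.9%, 17.5% and 9.63%. Hdac1 bound 25 members (29.4%) in at least 2 lines, beside 30.2% of all genes. Hdac2 did so at 15 members (17.6%), beside 10.6%, and at 14 without the Hd1_loxlox list.

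The members bound in both Hd2lox lists and in none of the other 4 were the largest single group that shared a pattern among bound members. There were 15 (17.6%, exact binomial 95% interval 10.2 to 27.4), where 377 of all genes (1.72%) had this pattern, a ratio of 10.2. Among them were Dlx6, Foxd3, Foxe1, Foxe3, Irx1, Lhx2, Nkx2-1, Nkx2-2, Nkx2-4, Nkx6-1, Nkx6-2, Pou4f2, Six6 and Tbx18. Not all were bound at the gene start. At Nkx2-1 and Six6 the end peaks lay at the stop end, and at Six6 they covered 1.63% (Hdac1) and 0.0% (Hdac2) of the gene. With listed starts only, Nkx2-1, Nkx2-2 and Six6 were in none of the 6 lists. For Nkx2-2 the only listed start is an inner one, and its end peaks lay at the start end of the gene. Over all members, each Hd2lox list had 17 peaks at the start end alone and 6 at the stop end alone. Its other end peaks lay at both ends or had no known strand. At 14 of the 15 the other 4 lists had no peak anywhere in the gene. The exception was Lhx2, a regulator of forebrain, eye and limb growth, which had a peak at its inner start in both Bry lists and in the Hd1_loxlox Hdac1 list as well. With peaks counted anywhere in the gene, 18 members (21.2%) were in both Hd2lox lists alone, beside 2.05% of all genes, with Pax1, Pax2, Pax3 and Pax7 added and Lhx2 gone. This pattern rests on 1 line with 1 library per antibody, and whether that line's lists were called against the same input is not given in the sources used here.

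Several of these genes specify parts of the nervous system that lie far from blood. Nkx2-2, Nkx6-1 and Nkx6-2 pattern the ventral spinal cord, Pou4f2 is needed for retinal ganglion cells and Six6 for the eye and pituitary. Foxd3 marks pluripotent and neural crest cells, Foxe1 the thyroid and palate and Foxe3 the lens. Nkx2-1 sets thyroid, lung and ventral forebrain, Dlx6 the jaw and limb, Irx1 brain and lung, and Tbx18 the somites and outer heart layer.

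At the Foxd3 gene (chr4:99656299-99658671) the Hd2lox peaks were 3888 bp wide for Hdac1 and 1975 bp for Hdac2, and covered 85.4% and 80.3% of the gene. At the Nkx2-4 gene (chr2:147083337-147085439) they were 2390 and 1959 bp wide and covered 91.2% and 86.2%. At Foxe1 they were 2751 and 1706 bp and covered 100% and 80.1%. At Nkx6-1 the widths were 2748 and 882 bp. In all 4 the Hdac1 peak was the wider, and none of them had a peak in a Bry or Hd1_loxlox list.

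**Figure D3:**
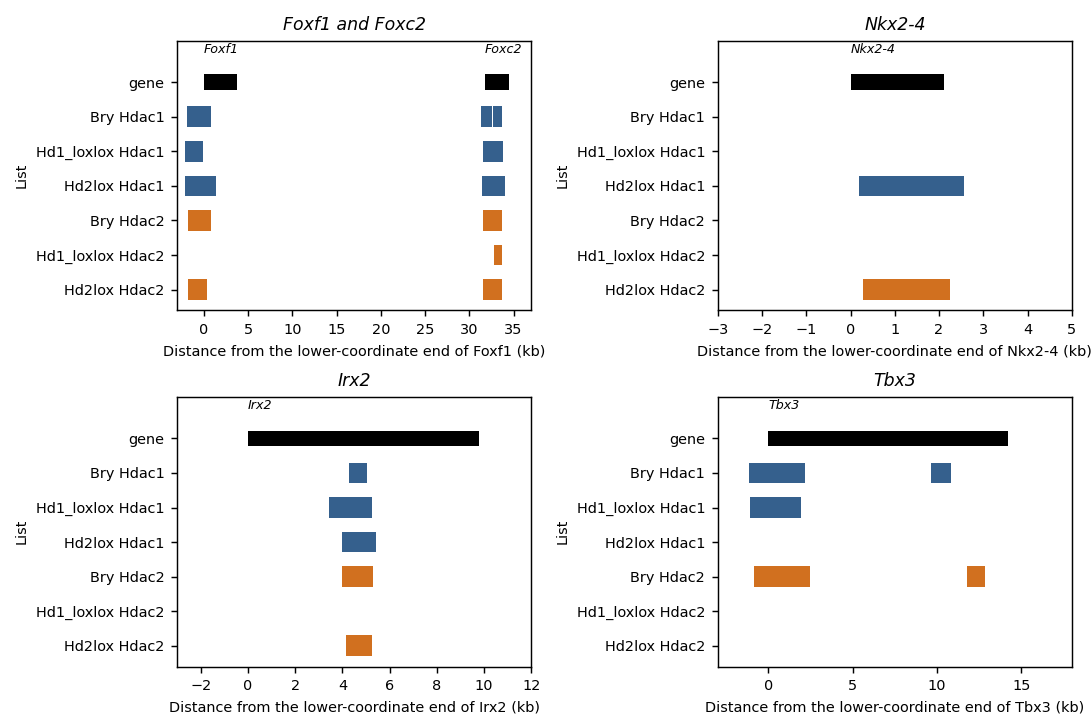
Peaks in the 6 lists at Foxf1 and Foxc2, Nkx2-4, Irx2 and Tbx3, as distance in kb from the lower-coordinate end of the gene, with genes in black, Hdac1 in blue and Hdac2 in orange; peaks in these genes or within 1000 bp of them are drawn. Nkx2-4 has peaks in the 2 Hd2lox lists alone, Tbx3 has none there, and Irx2 peaks lie inside the gene.

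Peaks at members in the Hd2lox lists were wide for their list. The widest peak at the end of a bound member had a median width of 2060 bp in the Hd2lox Hdac1 list, against 1475 bp over all bound genes. That was a median of the 85.5th percentile of that list's peak widths, against 52.5 for all bound genes. Of the 39 bound members, 19 (48.7%) had a peak above the 90th percentile of width in the list, against 10.6% of all bound genes. In the Hd2lox Hdac2 list the median was 982 bp against 891 bp, and 15 of 36 members (41.7%) were above that percentile against 19.2%.

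By the median, wider peaks at members were also seen in Hd1_loxlox Hdac1 and Bry Hdac2, but not in Bry Hdac1. The medians were 1414.5 against 1436 bp for Bry Hdac1, 1713.5 against 1527.5 bp for Hd1_loxlox Hdac1 and 1586.5 against 1393 bp for Bry Hdac2. The median percentiles in these 3 lists were 53.3 against 55.4, 68.1 against 54.4 and 70.3 against 57.2, and in Hd2lox Hdac2 83.5 against 69.6. Members above the 90th percentile numbered 3 (15% of the bound members, 11.3% for all bound genes), 4 (16.7%, 11.4%) and 8 (26.7%, 12.2%). The members are short genes, with a median length of 5848 bp against 17169 bp for all protein-coding genes. Their bound members' genes were covered to a median of 33.3% in the Hd2lox Hdac1 list and 25.5% in the Hd2lox Hdac2 list, against 2.86% and 1.93% of all bound genes. In Bry Hdac1 the cover was 18.7% against 3.6%, so this measure differed from all genes in that line too.

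The Hd2lox-only members had narrower Hdac1 peaks, by the median, than the other members bound in both Hd2lox lists, which was not tested. The 15 had a median Hdac1 width of 2032 bp (1127 to 3888) and the 18 members also bound in another list 2621 bp (1329 to 3603). The median percentiles were 84.5 and 96.0. For Hdac2 the medians were 1030 and 1006 bp. Over all 377 protein-coding genes with the Hd2lox-only pattern the medians were 1303 bp for Hdac1 and 895 bp for Hdac2. Over the 2367 genes in both Hd2lox lists and another list they were 1555 and 903 bp. The narrower Hdac1 peaks were therefore not particular to the members.

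Where a member was in both lists of Hd2lox, or in both lists of Bry, its Hdac1 and Hdac2 peaks overlapped. Overlap of the peaks was not counted over all genes, so it cannot be called particular to the members. In all, 33 members (38.8%, exact binomial 95% interval 28.4 to 50.0) were in both Hd2lox lists, beside 12.5% of all genes, and at each of the 33 the peaks overlapped. They were 84.6% of the Hd2lox Hdac1 members and 91.7% of the Hd2lox Hdac2 members, where over all genes the shares were 51.6% and 93.1%. In Bry 17 members were in both lists, 85% of the Hdac1 and 56.7% of the Hdac2 members, and all 17 had overlapping peaks. Over all genes these shares were 82.4% and 76.4%. Between lines the Hdac1 lists shared 14 members for Bry and Hd1_loxlox (70% and 58.3%) and 13 for Bry and Hd2lox (65.0% and 33.3%). The corresponding shares over all genes were 79.6% and 80.2%, and 52.1% and 68.5%.

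Foxc2, a forkhead factor of arterial and lymphatic vessels, was the only member in all 6 lists, where 0.448% of all genes were. Its gene (chr8:121116171-121118895) had Hdac1 peaks of 1233, 2185 and 2611 bp in Bry, Hd1_loxlox and Hd2lox, the Bry one having a separate peak beside it, and Hdac2 peaks of 2141, 995 and 2177 bp. The Hd2lox Hdac1 peak was the widest and the Hd1_loxlox Hdac2 peak the narrowest. Its neighbour Foxf1 (chr8:121084386-121088154), 28017 bp away and needed for the vessels of lung and yolk sac, had Hdac1 peaks of 2655, 1977 and 3444 bp. Its Hdac2 peaks were 2671 bp in Bry and 2180 bp in Hd2lox, with none at its ends in Hd1_loxlox.

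Foxf1 was 1 of 6 members bound in every list but Hd1_loxlox Hdac2, with Foxf2, Irx4, Irx5, Six5 and Tbx2. Foxf2 (chr13:31625816-31631406), which acts in the mesenchyme of gut, palate and brain vessels, had Hdac1 peaks of 1498, 2055 and 2795 bp in the order of lines above and Hdac2 peaks of 1046 bp in Bry and 856 bp in Hd2lox. Six5 (chr7:19094544-19098549), a homeobox gene beside Dmpk, had Hdac1 peaks of 2771, 2787 and 1656 bp and Hdac2 peaks of 3129 and 834 bp. Its Hd2lox peaks were the narrowest for both antibodies, unlike those of Foxf2 for Hdac1. Irx4 (chr13:73259589-73269622), a ventricle gene, had Hdac1 peaks of 1148, 1169 and 2813 bp and Hdac2 peaks of 1348 and 908 bp. Irx5 (chr8:92357796-92361456), which acts in heart and retina, had 1628, 1804 and 1587 bp for Hdac1 and 3516 and 1323 bp for Hdac2. Tbx2 (chr11:85832615-85841948), a repressor in the atrioventricular canal, had 1506, 2329 and 1329 bp for Hdac1 and 1150 and 801 bp for Hdac2. In each of these 6 the Hd2lox Hdac2 peak was narrower than the Bry one, as were the peaks of all bound genes (medians of 891 and 1393 bp).

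Irx3 (chr8:91798511-91801654), an Irx5 relative of the heart conduction system, was the remaining member in all 3 Hdac1 lists, with 1218, 2847 and 2631 bp, and its only end peak for Hdac2 was 876 bp in Hd2lox. By the mean percentile of Hdac1 width over the 3 lines, Foxf1 came first with 92.1, followed by Six5 with 86.5, Foxf2 with 80.3, Irx3 with 75.3 and Foxc2 with 72.7. Irx5 had 68.0, Tbx2 63.6 and Irx4 47.5. These 8 were all the members with an Hdac1 peak in every line.

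**Figure D4:**
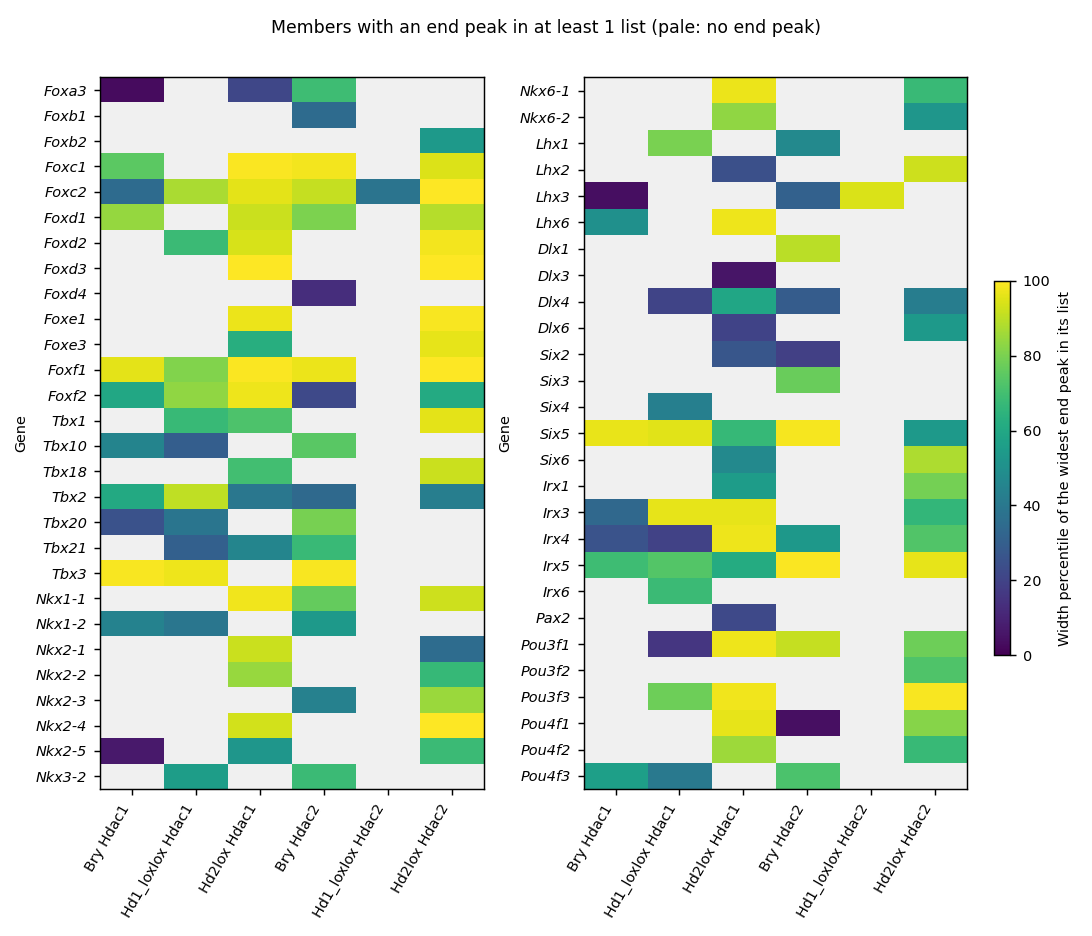
Members with an end peak in at least 1 list (rows, by family) and the 6 lists (columns), coloured by the percentile of the widest end peak among the peak widths of its list; pale cells have no end peak. Foxc2 is filled in all 6 columns, and Pax2 is the only Pax gene shown.

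The opposite pattern, bound in both Bry lists and in neither Hd2lox list, was seen at 7 members (8.24%), beside 11.3% of all genes. Of these, Nkx1-2, Pou4f3, Tbx3, Tbx10 and Tbx20 were also in the Hd1_loxlox Hdac1 list. Lhx3, which specifies motor neurons and pituitary, was in the Hd1_loxlox Hdac2 list in its place. Tbx3 (chr5:119670534-119684724), a repressor in limb and conduction tissue, had Hdac1 peaks of 3358 bp in Bry and 3051 bp in Hd1_loxlox and an Hdac2 peak of 3326 bp in Bry. These were at the 98.9th, 97.3rd and 99.0th percentile of their lists. Tbx20, of the heart muscle, had peaks of 1146, 1351 and 1761 bp in the same order. Tbx3 thus had peaks among the widest of 3 lists and no end peak in Hd2lox. Lhx3 had peaks inside the gene, over its inner listed start, in both Hd2lox lists, and with starts only it was in 5 lists. Tbx20 had a peak of 810 bp inside the gene in Hd2lox Hdac2. With starts only Tbx10 was in no list.

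Members with end peaks for Hdac2 alone were Dlx1, Foxb1, Foxd4 and Six3 in the Bry list, Foxb2 and Pou3f2 in the Hd2lox list, and Nkx2-3 in both of these. Dlx1 and Six3 are forebrain genes, Pou3f2 acts in neurons and Nkx2-3 in gut and spleen. None of the 7 was in the Hd1_loxlox Hdac2 list. Members with end peaks for Hdac1 alone were Dlx3 and Pax2 in Hd2lox, Irx6 and Six4 in Hd1_loxlox, and Lhx6 in Bry and Hd2lox.

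Families differed in how often a member was bound, and were described without a test. Irx genes, which pattern heart, brain and limb, gave 17 of 36 possible calls (47.2%), Pou4f genes of sensory neurons 8 of 18 (44.4%) and Fox genes 41 of 96 (42.7%). Six-type genes gave 14 of 36 (38.9%), Pou3f genes of neural progenitors and glia 8 of 24 (33.3%), Tbx genes 22 of 78 (28.2%) and Nkx genes 23 of 84 (27.4%). Dlx genes gave 8 of 36 (22.2%) and Lhx genes 9 of 48 (18.8%). Pax genes, which act in eye, kidney, muscle and B cells, gave 1 of 54 (1.85%). Without the Hd1_loxlox Hdac2 list these shares were 56.7% for Irx, 53.3% for Pou4f, 50% for Fox, 46.7% for Six-type, 40% for Pou3f, 33.8% for Tbx, 32.9% for Nkx, 26.7% for Dlx, 20% for Lhx and 2.22% for Pax, in the same order. All protein-coding genes gave 23.1% of possible calls, and 27.2% without that list. The families hold 3 to 16 genes, so 1 gene moves a small family's share by many points. On so few genes the Tbx, Nkx, Dlx and Lhx shares are near that of all genes.

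Higher counts in the Hd2lox lists were not seen in every family. In Bry, Hd1_loxlox and Hd2lox, Hdac1 bound 31.9%, 31.7% and 24.3% of all genes, and Hdac2 34.4%, 2.71% and 13.5%. The 16 Fox genes were bound 6, 4 and 11 times by Hdac1 in the same order (37.5%, 25.0% and 68.8%). For Hdac2 they were bound 8, 1 and 11 times (50.0%, 6.25% and 68.8%). The 14 Nkx genes went 2, 2 and 7 for Hdac1 (14.3%, 14.3% and 50.0%). For Hdac2 they went 4, 0 and 8 (28.6%, 0.0% and 57.1%). In Bry, Fox for Hdac1 and Nkx for Hdac2 were thus near all genes. By count, the 13 Tbx genes did not have more in Hd2lox than in Bry, with 4, 6 and 4 for Hdac1 and 5, 0 and 3 for Hdac2. Their Hd2lox shares were still above those of all genes, at 30.8% beside 24.3% for Hdac1 and 23.1% beside 13.5% for Hdac2. In Bry the Tbx shares were 30.8% beside 31.9% and 38.5% beside 34.4%. In Hd1_loxlox they were 46.2% beside 31.7% and 0.0% beside 2.71%. The Nkx family held 5 and the Fox family 4 of the 15 members bound in both Hd2lox lists alone, and the Tbx family 1.

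**Figure D5:**
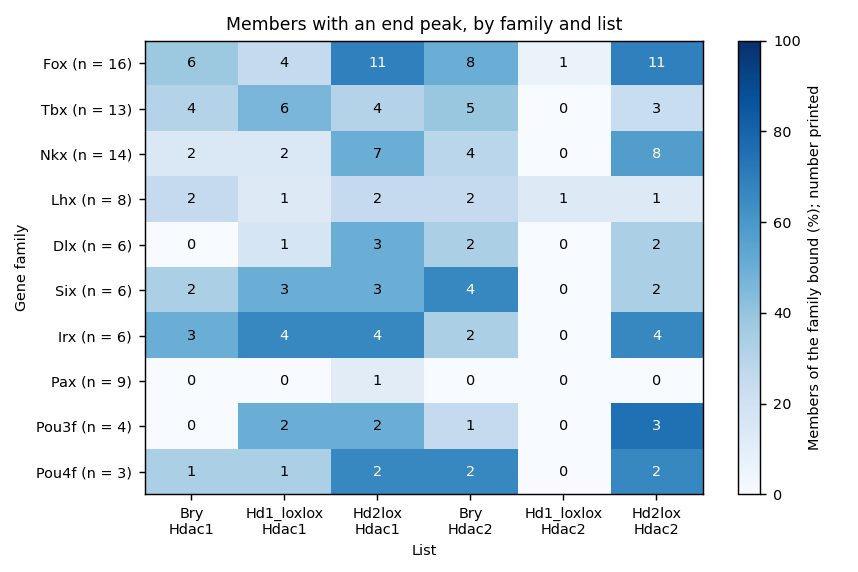
Number of members bound in each of the 6 lists (columns), by family (rows), coloured by the percentage of the family. Fox and Nkx counts are highest in the Hd2lox lists, Tbx counts are not, and Pax has 1 call.

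Most peaks at Pax genes lay inside the gene. The single end call was Pax2, of kidney and midbrain, by Hdac1 in Hd2lox. Inside peaks lay at the listed start of Pax1 in both Hd2lox lists and of Pax9 in Bry Hdac1, so that 3 of the 7 Pax genes with a listed start were bound there in at least 1 list. With peaks counted anywhere in the gene, 7 of the 9 Pax genes had a peak in at least 1 list, with 2, 1 and 6 for Hdac1 in Bry, Hd1_loxlox and Hd2lox and 2, 3 and 5 for Hdac2. In the same order, all genes had 35.4%, 35.2% and 29.3% for Hdac1 and 38.9%, 11.0% and 21.8% for Hdac2. The share of all genes with a peak anywhere in at least 1 list is not given here. Gene length was not allowed for, and Pax5 is 185947 bp long. Pax5, the B-cell identity factor, had a peak inside the gene in all 6 lists, and in Bry Hdac1 it was 1362 bp wide. Pax genes are long, with a median of 55049 bp against 2978 bp for Fox genes, so more of each lies away from its ends.

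Counted anywhere in the gene, the members bound were 25 (29.4%, 35.4% of all genes) in Bry Hdac1, 29 (34.1%, 35.2%) in Hd1_loxlox Hdac1 and 50 (58.8%, 29.3%) in Hd2lox Hdac1. For Hdac2 they were 38 (44.7%, 38.9%) in Bry, 8 (9.41%, 11.0%) in Hd1_loxlox and 46 (54.1%, 21.8%) in Hd2lox. Irx2, of brain and heart, had a peak inside the gene at its listed start in all lists but Hd1_loxlox Hdac2, and so no end call. The order of lists against all genes was the same as at gene ends.

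Counts were also made by the members' known roles. Beside them, Hdac1 bound 31.9%, 31.7% and 24.3% of all genes in Bry, Hd1_loxlox and Hd2lox, and Hdac2 34.4%, 2.71% and 13.5%. The 13 heart and pharynx genes were bound 8, 8 and 7 times by Hdac1 in the same order (61.5%, 61.5% and 53.8%). Hdac2 bound them 7, 0 and 8 times (53.8%, 0.0% and 61.5%), and 2 of them, Tbx5 and Nkx2-6, were in no list. All 4 vessel genes, Foxc1, Foxc2, Foxf1 and Tbx1, were bound in both Hd2lox lists, and 3 of them in each of the Bry lists. Foxc1, which acts with Foxc2 in vessels, had Hdac1 peaks of 1714 bp in Bry and 3603 bp in Hd2lox and Hdac2 peaks of 2933 and 1219 bp. It had no end peak in Hd1_loxlox.

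The 27 genes of brain, spinal cord and sense organs were bound 4 and 3 times by Hdac1 in Bry and Hd1_loxlox (14.8% and 11.1%) and 14 times in Hd2lox (51.9%). For Hdac2 the counts were 8, 1 and 14 (29.6%, 3.7% and 51.9%). Of the 27, 9 (33.3%) were in both Hd2lox lists alone, against 1 of the 13 heart and pharynx genes (7.69%) and none of the 4 vessel genes. Beside these, 17.6% of all members and 1.72% of all genes had this pattern. Of the 11 limb and skeleton genes 7 (63.6%) were in no list, beside 52.2% of all genes, among them Tbx4, Tbx5 and Tbx15. Of the 10 genes of gut, lung, liver, thyroid and pancreas 6 (60%) were in no list, among them Foxa1 and Foxa2, which open chromatin in endoderm. Of the 9 kidney, gonad and muscle genes 4 (44.4%) were in no list. On so few genes these 3 shares are near that of all genes. Of the 2 lymphocyte genes, the T-cell gene Tbx21 was bound in 3 lists and Pax5 at its ends in none. Of all genes, 12.5% were in 3 lists. A gene may stand in more than 1 role list.

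Other regulators of development gave mixed results when counted in the same way. The 44 relatives outside the symbol rule, such as Isl1, Eomes and the Fox classes h to s, were bound at 40.9%, 47.7% and 56.8% by Hdac1 in Bry, Hd1_loxlox and Hd2lox and at 56.8%, 4.55% and 47.7% by Hdac2. Only 1 (2.27%) was in both Hd2lox lists alone. The 39 Hox genes were bound at 2.56%, 7.69% and 35.9% by Hdac1 and at 10.3%, 7.69% and 20.5% by Hdac2, with 5 (12.8%) in both Hd2lox lists alone. The 40 other homeobox genes gave 27.5%, 37.5% and 47.5%, then 42.5%, 17.5% and 37.5%, with 6 (15%) in both Hd2lox lists alone. The Hd2lox-only pattern was therefore not particular to the 85 members, and its share was 17.6% among them.

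Some members lie close together. There were 14 pairs within 100000 bp, and they differed in how alike they were. Nkx2-4 and Nkx2-2, 91046 bp apart, had the same state in all 6 lists, bound in both Hd2lox lists alone. Nkx2-9 and Pax9, 78124 bp apart, also had the same state in 6 lists, being bound in none. Dlx1 and Dlx2, 9427 bp apart, differed in Bry Hdac2 alone. Foxd2 and Foxe3, 15545 bp apart, differed in Hd1_loxlox Hdac1 alone, where Foxd2 had a peak of 1713 bp. Tbx2 and Tbx4, 44419 bp apart, agreed in 1 list, Tbx2 being bound in 5 and Tbx4 in none.

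No peak lay at the ends of more than 1 member. Peaks at members that also lay at the end of another protein-coding gene numbered 4 of 21 in Bry Hdac1, 3 of 26 in Hd1_loxlox Hdac1 and 2 of 42 in Hd2lox Hdac1. For Hdac2 they were 4 of 32, 1 of 2 and 1 of 38. The genes concerned were Tbx10 with Nudt8, Lhx3 with Qsox2, Foxa3 with Sympk, Six5 with Dmpk and Six4 with Mnat1. At these a peak cannot be given to either gene alone, and Six5, Tbx10 and Lhx3 above are among them.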

How the data were processed

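The 6 deposited files hold peak positions on mm10 (chromosome, start and end) with no score, fold or p-value. Per the submitters' processing notes the tools were bcl2fastq, Bowtie2 2.2.9, SAMtools 1.3.1 and MACS2 2.1.1.20160309, with the authors' threshold and use of input not given in the sources used here. Peaks were set against the gene ends of RefSeq (GRCm38.p6) with Python 3.11.15, pandas 2.3.3, numpy 2.4.6 and SciPy 1.17.1, by code tested on simulated data. A gene was bound when a peak overlapped 1000 bp either side of an end by at least 1 bp. Peak width was ranked as a percentile within its own list. Coordinates are 1-based.

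The members, families, role lists and comparison lists were chosen with earlier results of these data known, so none is independent support. Named genes were those in 5 or 6 lists, those with the widest Hdac1 peaks over the lines, those bound in all lists of 1 line and none of another, those bound by Hdac2 alone and near neighbours. Others named for their values were chosen after these were seen. Libraries were grouped by line and antibody from the labels. Hdac1 and Hdac2 pair by cell line. With no read numbers, depth is unknown and precision rests on the number of genes and lines. Alternatives were windows of 500, 2000 and 5000 bp, starts only, peaks anywhere in the gene, an overlap of 200 bp, the wider 50% of each list, lists cut to 5161 peaks, and leaving out each line. The count of members in both Hd2lox lists alone, and leaving out the Hd1_loxlox Hdac2 list, were chosen after seeing the data. Some members are counted but not reported here by name or drawn singly.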

Additional observations from a re-analysis of the deposited data

Results flagged for a closer look

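The share of members bound by Hdac1 minus that bound by Hdac2 went in different directions in the 3 lines. Bry gave -11.8 percentage points, Hd1_loxlox 25.9 and Hd2lox 3.53. Each line had 1 library per antibody, so Bry differed in sign from the other lines on 1 pair of libraries, and the difference between lines was not tested. The Hd1_loxlox value rests on the Hdac2 list with peaks at the ends of 594 genes. Over all protein-coding genes the differences were -2.48, 29.0 and 10.8 percentage points, with the same signs.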

How the results depend on the processing

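Against all genes, the members' share stayed higher in both Hd2lox lists under all 8 settings tried on peaks and windows, at 1.79 to 2.76 times for Hdac1 and 2.48 to 3.96 times for Hdac2. Members in both Hd2lox lists alone numbered 15, 9 of 60 genes when only starts were used (fewer genes), and 13 to 18 under the other settings. Leaving out Bry left 20, leaving out Hd1_loxlox 18, and leaving out the Hd1_loxlox Hdac2 list 15. A 5000 bp window moved Hd1_loxlox Hdac2 to 9.41%, against 7.08% of all genes, and turned its ratio to all genes from 0.867 to 1.33. Peaks anywhere in the gene gave 58.8% for Hd2lox Hdac1 (29.3% of all genes), 9.41% for Hd1_loxlox Hdac2 (11.0%) and 54.1% for Hd2lox Hdac2 (21.8%). That setting gave 23 of 85 members with Hdac2 in 2 lines, beside 18.7% of all genes. With starts only, 16 of 60 members had Hdac1 in 2 lines, beside 31.3% of all genes with a listed start. The wider 50% of each list gave 12.9% for Bry Hdac1, 17.6% for Hd1_loxlox Hdac1 and 23.5% for Bry Hdac2, with 15 members for Hdac1 and 9 for Hdac2 in 2 lines. Lists of equal length gave 24.7% for Bry Hdac2 and 9 members for Hdac2 in 2 lines. With a line left out both remaining lines were needed, and 13 to 14 members had Hdac1, and 1 (without Bry) to 14 had Hdac2. Shortened lists hold fewer peaks for all genes too. The shares of all genes with shortened lists, or with a line or list left out, are not given here. Lower counts there are therefore not read as changes in the members. The mean Hdac1 minus Hdac2 difference ran from -4.12 (without Hd1_loxlox) to 14.7, and was -6.27 without that line's Hdac2 list. Taken as a replicate block, with lines paired, it was 5.88, as without pairing. The cause of these changes was not tested, beyond the fewer genes or peaks that a setting leaves. Peak lists without read numbers limit all statements to whether a peak was called.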
